A study of Rattus norvegicus with 20 samples.

Results

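Matrix metalloproteinases and the inhibitor Timp1 were followed by bulk RNA-seq in rat mesenchymal stromal cells (MSCs) grown on soft or stiff silicone for up to 5 weeks. The 6 genes were chosen by name and read from the count table by their rat Ensembl identifiers: Mmp2 (ENSRNOG00000016695), Mmp3 (ENSRNOG00000032626), Mmp9 (ENSRNOG00000017539), Mmp13 (ENSRNOG00000008478), Mmp14 (ENSRNOG00000010947) and Timp1 (ENSRNOG00000010208). They are 6 of the 30560 genes in the table, and all 6 were among the 14034 genes that passed the filter on low counts.

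The MSCs came from the bone marrow of female Wistar rats, 1 rat for each batch of cells, and were selected on magnetic beads for CD54 and CD90. All were passaged weekly on gelatin-coated elastomer of either 2 kPa (soft) or 100 kPa (stiff), so every group shared the substrate material, the coating and the serum-containing medium. The 8 groups were 1 week on soft (1w2) or stiff (1w100), 3 weeks on soft (3w2) or stiff (3w100), 5 weeks on soft (5w2) or stiff (5w100), 3 weeks on soft followed by 2 weeks on stiff (3w2→2w100), and 3 weeks on stiff followed by 2 weeks on soft (3w100→2w2). The 1-week and 3-week groups had 3 libraries each and the five-week groups had 2 each, 20 libraries in all, and the sources used here, which call the replicates biological, do not say which number belongs to which rat. The cell type could not be checked against its markers here, because no table pairing the other identifiers with symbols was given.

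Matrix metalloproteinases are zinc enzymes that cleave collagens and other matrix proteins, and most are secreted as inactive proenzymes that have to be cut before they work. Mmp2 and Mmp9 are the gelatinases, which digest denatured collagen and basement membrane collagen, Mmp3 is a stromelysin of broad substrate range that also activates other proenzymes, Mmp13 is a collagenase that opens the intact fibrillar triple helix, and Mmp14 is anchored in the plasma membrane and activates proMmp2 at the cell surface. Timp1 is a secreted inhibitor that binds many, but not all, active metalloproteinases. Stromal cells and fibroblasts are a main source of metalloproteinases during matrix turnover and scarring. RNA levels, as measured here, do not show how much enzyme was secreted or active.

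Levels are given as CPM, which are counts scaled to a common library size with TMM factors that also allow for library composition, and each gene is compared only with itself because gene lengths were not given. Library totals ran from 16127907 to 24139128 counts. Mmp2 held 11301 to 34381 counts in a library, Mmp14 5574 to 12758 and Timp1 3565 to 6416, whereas Mmp9 held 14 to 126, Mmp13 4 to 316 and Mmp3 0 to 53. The SD within groups on the log2 CPM scale followed the same division, at 0.28 for Mmp2, 0.20 for Mmp14 and 0.14 for Timp1 against 0.93 for Mmp9, 0.93 for Mmp3 and 1.07 for Mmp13. Differences of the last 3 genes were therefore measured with a much larger error. In bulk RNA, fewer expressing cells and less RNA per cell cannot be told apart. Timp1 overlaps 1 other gene in the RefSeq annotation, Syn1, and whether the deposited counts used the strand is not given in the sources used here.

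Mmp13 and Mmp3 lie near each other on chromosome 8, with 3 annotated genes between them, of which 2 are protein-coding (Mmp12 and Mmp1b). Promoter sequences from RefSeq were found for 3 of the 6 genes, Mmp3, Mmp13 and Timp1. The 250 bases before the transcription start of the Mmp3 and Mmp13 genes are shown because these neighbours share several short motifs and had opposite signs of difference at 5 weeks. Neither difference was called, and the sign for Mmp13 turned without 5w100 replicate 2. The build is GRCr8, both genes are on the plus strand, each sequence runs 5′ to 3′ and ends just before the start, and capitals mark the AP-1 motif.
Mmp3, chr8:12925031-12925280: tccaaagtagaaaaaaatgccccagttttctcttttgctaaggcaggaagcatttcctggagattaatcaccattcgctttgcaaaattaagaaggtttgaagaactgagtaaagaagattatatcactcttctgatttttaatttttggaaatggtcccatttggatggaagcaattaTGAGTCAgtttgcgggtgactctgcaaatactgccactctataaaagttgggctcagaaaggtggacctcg
Mmp13, chr8:12782579-12782828: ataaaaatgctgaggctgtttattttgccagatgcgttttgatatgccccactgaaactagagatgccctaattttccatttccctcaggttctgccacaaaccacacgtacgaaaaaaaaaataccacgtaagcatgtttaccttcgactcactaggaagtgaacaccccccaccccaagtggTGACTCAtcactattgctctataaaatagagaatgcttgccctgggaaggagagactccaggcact

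The search covered both strands for 5 motifs. They were TGANTCA for AP-1 factors, TGTGGT for RUNX factors, AGATAA for factors of the GATA family, TATAAA for the basal promoter element of that name, and AGGAAG for E26 transformation-specific factors. The AP-1 letters stood 71 to 65 bases before the start in Mmp3 (TGAGTCA) and 66 to 60 bases before it in Mmp13 (TGACTCA). Both promoters also held 1 TATA box and 1 AGGAAG match, and Mmp13 alone held a RUNX match, on the minus strand, 149 to 144 bases before the start. The Timp1 window held 2 AGGAAG matches and none of the other 4 motifs. Among all 33469 rat promoters of this length, 6.34% held the AP-1 letters, 14.5% the RUNX letters, 10.3% the GATA letters, 12.9% the TATA box and 29.5% AGGAAG. These matches describe letters in the sequence, and binding at them was not measured here.

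Mmp2 was the metalloproteinase whose difference between surfaces passed the test: at 5 weeks, cells that had spent their first 3 weeks on stiff silicone held 1.71-fold more Mmp2 RNA than cells primed on soft silicone, averaged over the surfaces at harvest. At 1 week the 3 soft libraries read 814, 951 and 1445 CPM and the 3 stiff libraries 862, 1045 and 1438 CPM. The surfaces overlapped fully, and the spread lay between replicates, with replicate 3 highest on both. At 3 weeks Mmp2 read 893, 883 and 1020 CPM on soft and 1442, 1181 and 1149 CPM on stiff. Every stiff library was then above every soft one. At 5 weeks the constant soft cultures read 605 and 725 CPM and the constant stiff cultures 1110 and 1328 CPM, a gap wider than either pair's own spread.

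The soft minus stiff difference of Mmp2 on the log2 scale was -0.06 (SE 0.22, edgeR adjusted p = 1) at 1 week. It was -0.43 (SE 0.22, edgeR adjusted p = 0.815) at 3 weeks and -0.87 (SE 0.27, edgeR adjusted p = 0.129) at 5 weeks. None of these passed the threshold of 0.05 after Benjamini-Hochberg adjustment over all 14034 genes. The change of the difference from 1 to 5 weeks was itself -0.82 (SE 0.34, edgeR adjusted p = 0.648), so a widening with time was not shown by this test. On soft silicone alone Mmp2 was 1.40-fold lower at 5 than at 3 weeks (log2 difference -0.49, SE 0.25, edgeR adjusted p = 0.557), and the libraries of the 2 groups did not overlap.

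After the switch, the mean of Mmp2 was nearer that of the first surface than that of the new one. Cells moved from soft to stiff (3w2→2w100) read 660 and 758 CPM, within or just above the 605 and 725 CPM of cells kept on soft. Cells moved from stiff to soft (3w100→2w2) read 948 and 1307 CPM, which overlapped the 1110 and 1328 CPM of cells kept on stiff. The moved groups differed from the constant group of the same first surface by 0.09 (3w2→2w100 minus 5w2, SE 0.27) and -0.11 (3w100→2w2 minus 5w100, SE 0.27) on the log2 scale, both with an edgeR adjusted p of 1. Against the constant group on their new surface the differences were -0.78 (3w2→2w100 minus 5w100, SE 0.27, edgeR adjusted p = 0.200) and 0.76 (3w100→2w2 minus 5w2, SE 0.27, edgeR adjusted p = 0.211). These 4 contrasts share the 5w2 and 5w100 libraries and are not independent of each other. They also leave out any pairing of libraries of the same first surface and replicate number. With such pairs as blocks, the differences from the same first surface were 0.09 (3w2→2w100 minus 5w2) and -0.13 (3w100→2w2 minus 5w100), also not called.

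With the 4 soft-primed and 4 stiff-primed five-week libraries set against each other, Mmp2 ranged from 605 to 758 CPM after soft priming and from 948 to 1328 CPM after stiff priming, with no overlap. The soft minus stiff priming difference was -0.77 on the log2 scale (SE 0.19, 95% interval -1.18 to -0.37, edgeR adjusted p = 0.0202), with group means of 687 and 1173 CPM. Mmp2 was the 1 gene of the 6 called in this comparison, in which 9.75% of all tested genes were called and 15.3% had a larger difference. Grouped instead by the surface at harvest, the same 8 libraries overlapped and the difference was -0.10 (SE 0.19, edgeR adjusted p = 1.00). The 2 libraries that share a first surface and a replicate number were close to each other across all genes (distances of 38.7 to 40.4 on the log2 CPM scale, against 79.3 to 92.4 between numbers of the same priming), so the 4 libraries of a priming group are not 4 independent cultures. Summed to 1 library for each such pair, an alternative chosen after the data were seen, the Mmp2 difference was -0.78 with an edgeR adjusted p of 0.204, and in a model of the 8 libraries alone the adjusted p was 0.0723. Left out 1 at a time in the edgeR test, 5w2 replicate 1, 5w100 replicate 2, 3w2→2w100 replicate 1 and 3w100→2w2 replicate 2 each ended the call, with adjusted p-values of 0.0776, 0.102, 0.0711 and 0.113.

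**Figure D1:**
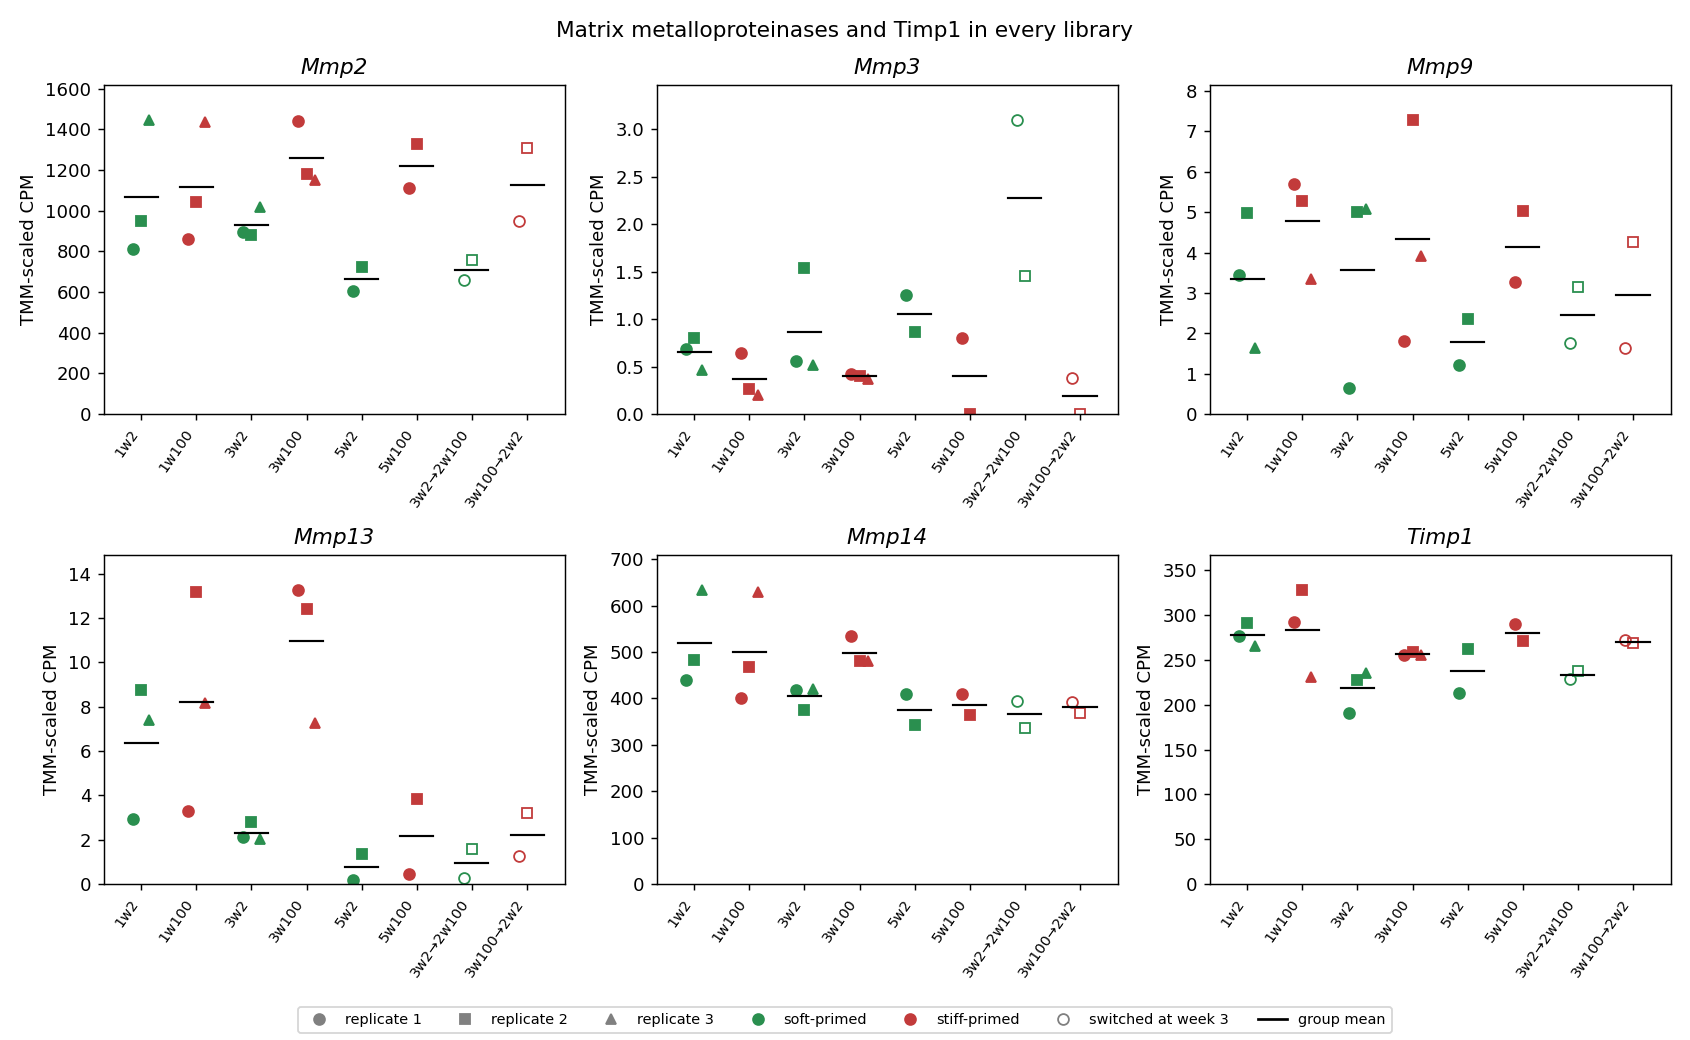
Level of each of the 6 genes in TMM-scaled CPM on linear axes from 0, by group, with 1 symbol for each library (circles, squares and triangles for replicates 1, 2 and 3) and a bar at the group mean. Green marks soft-primed and red stiff-primed cells, and open symbols mark cells switched at week 3. For Mmp2 all 4 soft-primed five-week libraries lie at or below 758 CPM and all 4 stiff-primed ones at or above 948 CPM.

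Mmp9, the second gelatinase, was low and variable, and no difference between surfaces passed the test. Its CPM at 1 week were 3.46, 4.97 and 1.63 on soft and 5.70, 5.29 and 3.35 on stiff. At 3 weeks they were 0.647, 4.99 and 5.08 on soft and 1.80, 7.28 and 3.92 on stiff. The surfaces overlapped at both times, with single libraries of the same group up to several fold apart. At 5 weeks Mmp9 read 1.21 and 2.35 CPM on soft and 3.26 and 5.03 CPM on stiff, which did not overlap. The difference there was -1.22 on the log2 scale (SE 0.82, edgeR adjusted p = 0.509). The switched cultures were intermediate in mean, at 1.75 and 3.14 CPM in 3w2→2w100 and 1.62 and 4.27 CPM in 3w100→2w2, and the second of these groups overlapped both constant groups. The priming difference of Mmp9 was -0.74 (SE 0.58, 95% interval -1.99 to 0.50, edgeR adjusted p = 0.441), an interval that holds both no difference and one as large as that of Mmp2.

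Mmp3 ran opposite in sign to the gelatinases, with more counts after soft than after stiff priming, but its counts were few and its difference just missed the threshold. At 1 week the soft libraries held 14, 14 and 8 counts and the stiff libraries 14, 5 and 4 counts. At 3 weeks soft held 12, 24 and 11 counts and stiff 10, 7 and 7 counts. In CPM this was 0.517 to 1.54 on soft and 0.371 to 0.419 on stiff, without overlap. The gap was 11 against 10 counts, which lie within counting error of each other. The 3-week difference was 1.08 on the log2 scale (SE 0.84, edgeR adjusted p = 0.874). At 5 weeks the constant soft cultures held 29 and 18 counts and the constant stiff cultures 14 and 0. The highest reading was in cells moved from soft to stiff, with 53 and 24 counts. The lowest was in cells moved from stiff to soft, with 7 and 0 counts. A count of 0 allows up to 3 counts, or 0.164 CPM in 5w100 replicate 2 and 0.171 CPM in 3w100→2w2 replicate 2, and this limit covers counting error only.

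In CPM, the 4 soft-primed five-week libraries of Mmp3 read 1.25, 0.862, 3.10 and 1.45, and the 4 stiff-primed libraries 0.801, 0, 0.379 and 0. All soft-primed libraries were above all stiff-primed ones, although 0.862 and 0.801 CPM are 18 and 14 counts and lie within counting error of each other. Within replicate 1, Mmp3 in 3w2→2w100 was 8.17-fold that in 3w100→2w2. Within replicate 2 it was at least 8.50-fold higher, taking 3 counts in the library at 0. The fitted priming difference was 2.46 on the log2 scale (SE 0.75, 95% interval 0.85 to 4.07, edgeR adjusted p = 0.0521), above the threshold of 0.05. By DESeq2 the same difference was 2.49 with an adjusted p of 0.0133, and 3.32% of tested genes had a larger difference in edgeR. It was not called in a model of the 8 five-week libraries alone (edgeR adjusted p = 0.259, DESeq2 0.212) or with same-numbered libraries of 1 priming summed (edgeR adjusted p = 0.246). Left out 1 at a time, 6 of the 8 libraries gave edgeR adjusted p-values from 0.0542 to 0.195, with differences from 1.96 to 2.68. Without 5w100 replicate 1 or 3w100→2w2 replicate 1, the only stiff-primed five-week libraries with Mmp3 counts, it was 0.00661 or 0.0214, with that group at 0 and its fitted difference, 5.44 or 4.93, no estimate of size.

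The single Mmp3 contrasts at 5 weeks had wide errors. Constant soft minus constant stiff was 1.40 (SE 1.02, edgeR adjusted p = 0.545). Cells moved from soft to stiff exceeded cells kept on stiff by 2.50 (SE 1.02, edgeR adjusted p = 0.283), and exceeded cells kept on soft by 1.10 (SE 0.92, edgeR adjusted p = 1). Cells moved from stiff to soft differed from cells kept on soft by -2.42 (SE 1.11, edgeR adjusted p = 0.359). By the surface at harvest the sign turned, at -1.06 (SE 0.76, edgeR adjusted p = 1.00), with overlapping libraries.

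Mmp13 had the widest range of the 6, with a group mean 14.5-fold higher in the highest group (3w100) than in the lowest (5w2). At 1 week the collagenase held 60, 153 and 127 counts on soft and 72, 254 and 163 on stiff, or 2.92, 8.75 and 7.39 CPM against 3.28, 13.2 and 8.16 CPM. Replicate 1 was low on both surfaces, and the surfaces overlapped. At 3 weeks it held 46, 44 and 43 counts on soft and 316, 215 and 137 on stiff, or 2.13, 2.82 and 2.02 CPM against 13.3, 12.4 and 7.26 CPM. The lowest stiff library was thus well above the highest soft one, and stiff over soft was 6.23-fold, 4.41-fold and 3.59-fold for replicates 1, 2 and 3.

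At 3 weeks the soft minus stiff difference of Mmp13 was -2.25 on the log2 scale (SE 0.76, 95% interval -3.87 to -0.62), a mean 4.74-fold higher on stiff. It was not called by the test across all libraries (unadjusted p = 0.0100 and adjusted p = 0.777 by edgeR's quasi-likelihood test). Only 0.656% of tested genes had a larger difference at this time. DESeq2 on all libraries gave an adjusted p of 0.386 and DESeq2 on the 6 libraries of these 2 groups, an alternative chosen after the data were seen, 7.30e-09. At 1 week the difference was -0.37 (SE 0.72, edgeR adjusted p = 1).

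By 5 weeks all group means of Mmp13 were below those at 1 and 3 weeks, though for 5w100 and 3w100→2w2 only just below that of 3w2. The libraries held 4 and 28 counts in 5w2, 8 and 70 in 5w100, 5 and 26 in 3w2→2w100 and 23 and 56 in 3w100→2w2. In replicate 2 of 5w100 and of 3w100→2w2, at 3.83 and 3.19 CPM, Mmp13 was above every 3w2 library. Replicate 2 was above replicate 1 in all 4 groups. Within each number the constant stiff culture exceeded the constant soft one, by 2.65-fold for replicate 1 and 2.86-fold for replicate 2. The replicate 1 ratio is 8 against 4 counts, which lie within counting error of each other. The constant cultures differed by -1.52 (soft minus stiff, SE 1.01, edgeR adjusted p = 0.504), and priming by -1.38 (SE 0.72, 95% interval -2.91 to 0.15, edgeR adjusted p = 0.237). Without 5w100 replicate 2 the fitted difference was 0.69, which sets stiff replicate 1 alone against both soft replicates and does not keep the numbers together. Over time on soft silicone, Mmp13 was 2.74-fold lower at 3 than at 1 week (-1.45, SE 0.75, edgeR adjusted p = 0.277) and 3.08-fold lower again at 5 than at 3 weeks (-1.62, SE 0.95, edgeR adjusted p = 0.608), in both steps with no overlap. The later of these differences was -0.78 without 5w2 replicate 1 and -3.69 without 5w2 replicate 2. On stiff silicone the mean did not fall over the first step (0.42, SE 0.71, edgeR adjusted p = 0.778) and was 5.09-fold lower over the second (-2.35, SE 0.89, edgeR adjusted p = 0.728), with 137 counts as the lowest value at 3 weeks and 70 as the highest at 5. Without 5w100 replicate 1 or replicate 2 it was -1.52 or -4.57. None of the 4 steps passed the test. Groups without overlap were common in these steps, at 21% to 32.4% of all genes.

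**Figure D2:**
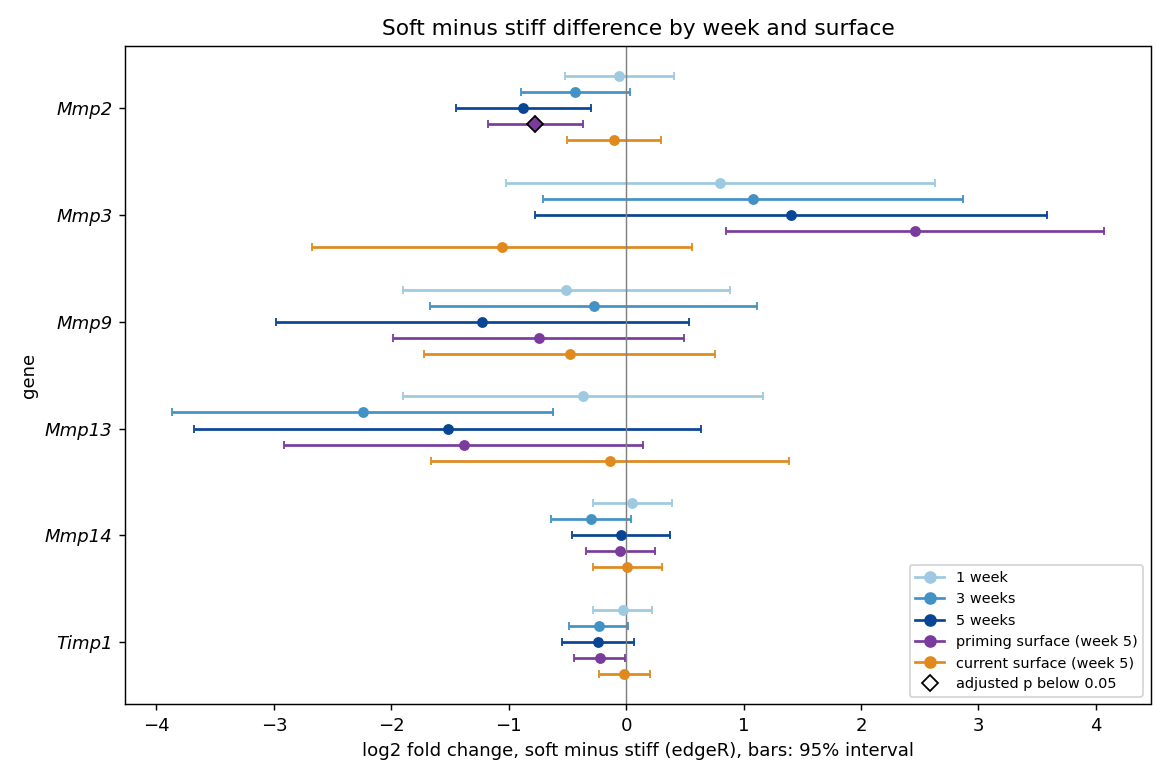
Soft minus stiff log2 fold change of each gene by edgeR, with 95% intervals, for constant cultures at 1, 3 and 5 weeks (blue, light to dark), for the priming surface of all five-week libraries (purple) and for their surface at harvest (orange). A diamond marks an adjusted p below 0.05, which Mmp2 reached for the priming surface, at -0.77. The intervals of Mmp3, Mmp9 and Mmp13 are several times as wide as those of Mmp14 and Timp1.

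Mmp14, the membrane-type enzyme, had the smallest priming difference of the 6, and no difference between surfaces passed the test. At 1 week it read 439, 483 and 633 CPM on soft and 401, 467 and 630 CPM on stiff, with replicate 3 highest on both. At 3 weeks it read 419, 375 and 421 CPM on soft and 535, 480 and 481 CPM on stiff. These groups did not overlap, but their difference was -0.30 on the log2 scale (SE 0.16, edgeR adjusted p = 0.827). At 5 weeks Mmp14 read 410 and 342 CPM in 5w2, 410 and 364 CPM in 5w100, 395 and 337 CPM in 3w2→2w100, and 393 and 370 CPM in 3w100→2w2. Replicate 1 was above replicate 2 in each group, and all 4 groups overlapped. The priming difference of Mmp14 was -0.05, with a 95% interval of -0.34 to 0.24 (edgeR adjusted p = 0.858). This interval does not reach the size seen for Mmp2. It takes the 4 libraries of each priming as independent, which they are not, so it may be too narrow. With time, Mmp14 was 1.28-fold lower at 3 weeks than at 1 week on soft (-0.36, SE 0.16, edgeR adjusted p = 0.200) and 1.29-fold lower at 5 than at 3 weeks on stiff (-0.37, SE 0.18, edgeR adjusted p = 0.793), both without overlap and neither past the threshold.

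Timp1, the inhibitor, was the steadiest of the 6, with a highest group mean of 284 CPM (1w100) only 1.30-fold above the lowest of 218 CPM (3w2). At 1 week it read 277, 291 and 265 CPM on soft and 293, 328 and 231 CPM on stiff. The surfaces overlapped. At 3 weeks it read 191, 228 and 236 CPM on soft and 255, 259 and 256 CPM on stiff, so that all stiff libraries were above all soft ones, by 1.18-fold in the mean (soft minus stiff -0.23, SE 0.12, edgeR adjusted p = 0.814). At 5 weeks it read 213 and 262 CPM in 5w2 and 290 and 271 CPM in 5w100, a difference of -0.24 (SE 0.14, edgeR adjusted p = 0.445). The switched cultures read 229 and 238 CPM in 3w2→2w100 and 272 and 269 CPM in 3w100→2w2.

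All 4 soft-primed five-week libraries of Timp1 (213 to 262 CPM) were below all 4 stiff-primed ones (269 to 290 CPM). The priming difference was -0.23 (SE 0.10, 95% interval -0.44 to -0.01, edgeR adjusted p = 0.173), the same sign as Mmp2 at a smaller size and not called. The interval takes same-numbered libraries of a priming as independent, which they are not. With those libraries summed, the edgeR adjusted p was 0.485. On soft silicone Timp1 was 1.27-fold lower at 3 weeks than at 1 week, with no overlap (-0.35, SE 0.12, edgeR adjusted p = 0.0853). DESeq2 gave -0.36 and an adjusted p of 0.0367 for this step.

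**Figure D3:**
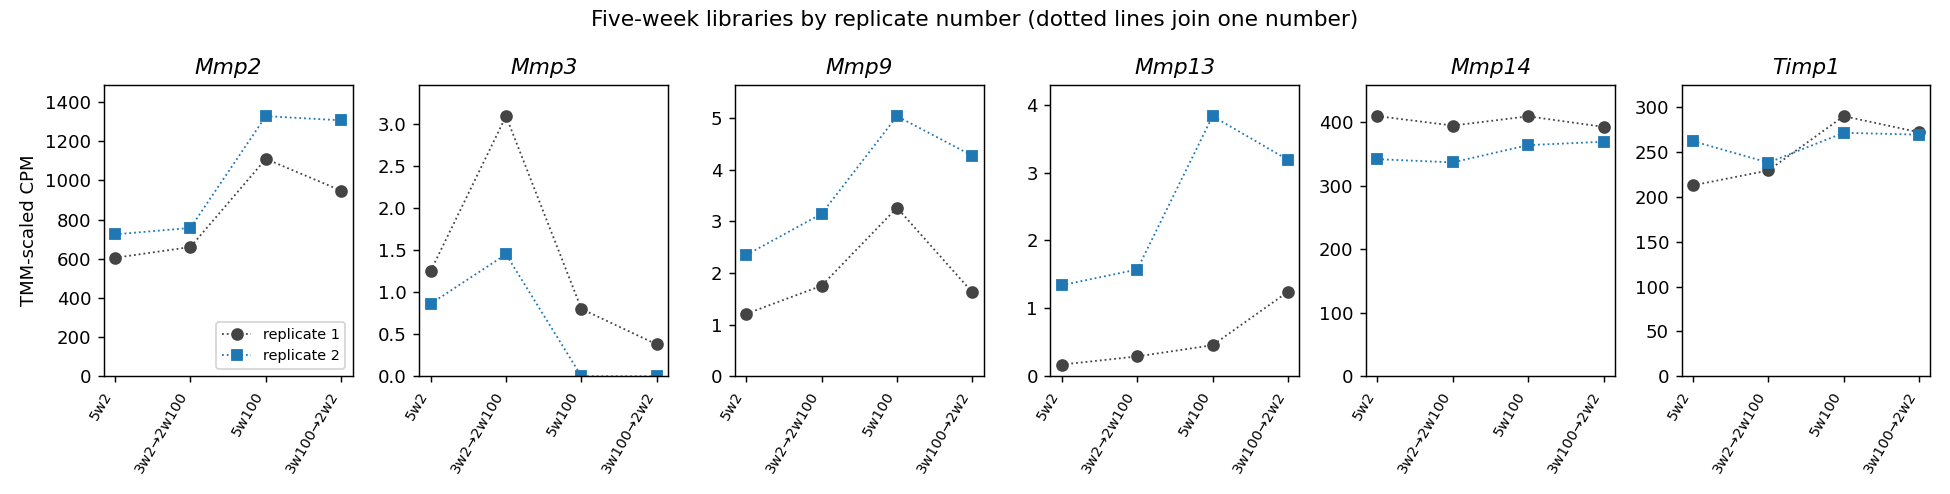
The 8 five-week libraries of each gene in TMM-scaled CPM on linear axes from 0, by group, with dotted lines joining libraries of the same replicate number. Mmp2 in both numbers steps up from the soft-primed groups (5w2, 3w2→2w100) to the stiff-primed groups (5w100, 3w100→2w2), and replicate 2 lies above replicate 1 in all 4 groups for Mmp2, Mmp9 and Mmp13 and below it for Mmp3 and Mmp14.

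Ordered by group mean, Mmp2 ran 3w100 (1257 ± 160 CPM, SD, n = 3), 5w100 (1219 ± 154, n = 2), 3w100→2w2 (1127 ± 254, n = 2), 1w100 (1115 ± 294, n = 3), 1w2 (1070 ± 332, n = 3), 3w2 (932 ± 76.4, n = 3), 3w2→2w100 (709 ± 68.9, n = 2) and 5w2 (665 ± 84.8, n = 2). Neighbours in this order overlapped except at the step from 3w2 to 3w2→2w100. The 4 groups that began on stiff silicone thus stood above the 4 that began on soft silicone in the mean. Mmp3 ran nearly in reverse, from 3w2→2w100 (2.27 ± 1.16 CPM, SD, n = 2), 5w2 and 3w2 at the top to 3w100, 1w100 and 3w100→2w2 (0.189 ± 0.268 CPM, SD, n = 2) at the bottom, with 1 step between neighbours free of overlap, the first. Mmp13 ran from 3w100 (11.0 ± 3.24 CPM, SD, n = 3) to 5w2 (0.757 ± 0.826 CPM, SD, n = 2), and its neighbours overlapped except between 1w2 and 3w2. Mmp14 had its means between 366 CPM (3w2→2w100) and 519 CPM (1w2), with 1 step free of overlap, from 3w100 to 3w2. Timp1 had 1 such step, from 3w100→2w2 to 3w100, and Mmp9, from 4.78 CPM in 1w100 to 1.78 CPM in 5w2, had none.

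Counted by comparison, none of the 6 genes was called between surfaces at 1 week or 3 weeks, where the test called 0% of all genes. Without adjustment, p was below 0.05 for 54 genes and 0 of the 6 at 1 week and for 863 genes and 1 of the 6 (Mmp13) at 3 weeks, and DESeq2 called 0 and 11 genes in all and 0 of the 6 at each time. At 5 weeks edgeR called 0.264% of all genes and 0 of the 6, with 1 of the 6 (Mmp2) below 0.05 unadjusted, as were 15.4% of all genes. DESeq2 called 588 genes in that comparison, Mmp2 among them with an adjusted p of 0.0368. Groups without overlap were counted for 0 of the 6 genes at 1 week (3.76% of all genes), 5 of 6 at 3 weeks (14.5%; all but Mmp9) and 4 of 6 at 5 weeks (43.1%; Mmp2, Mmp3, Mmp9 and Timp1). For the priming surface it was 3 of 6 (Mmp2, Mmp3 and Timp1, against 19.3% of all genes) and for the surface at harvest 0 of 6 (0.62%). The Mmp3 gap in these counts was 11 against 10 reads at 3 weeks. It was 18 against 14 reads at 5 weeks and for the priming surface. The median soft minus stiff priming difference of the 6 genes was -0.49 on the log2 scale and that of all genes was 0.

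With time in culture, 8.03% of all genes were called from 1 to 3 weeks on soft and 8.41% on stiff, with 0 of the 6 genes among them in edgeR. Below 0.05 unadjusted were 2 of the 6 on soft (Mmp14 and Timp1) and 0 on stiff, against 22.3% and 22.7% of all genes, and DESeq2 called 1 (Timp1) and 0, of 1517 and 1540 genes called in all. From 3 to 5 weeks 0% of genes were called on either surface, with 1315 genes below 0.05 unadjusted on soft, 889 on stiff, 110 and 17 called by DESeq2, and none of the 6 called by either tool. Moving the cells called 0% of genes against the constant culture of the same first surface and 0% for the surface at harvest (52, 87 and 114 genes below 0.05 unadjusted for 3w2→2w100, 3w100→2w2 and the surface at harvest, 0 by DESeq2). Against the constant culture of the new surface 0.057% (3w2→2w100 against 5w100) and 0.178% (3w100→2w2 against 5w2) were called, again with 0 of the 6 by edgeR or by DESeq2 on all libraries, and with 2 of the 6, Mmp2 and Mmp3, below 0.05 unadjusted in each. Of all genes 14.1% and 13.5% were below 0.05 unadjusted there, and DESeq2 called 440 and 443. From 1 to 3 weeks on soft, groups without overlap were counted for 3 of 6 genes (Mmp13, Mmp14 and Timp1, against 28.5% of all). On stiff it was 0 of 6 (30.8%). From 3 to 5 weeks it was 2 of 6 on soft (Mmp2 and Mmp13, against 32.4%). On stiff it was 3 of 6 (Mmp13, Mmp14 and Timp1, against 21%).

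**Figure D4:**
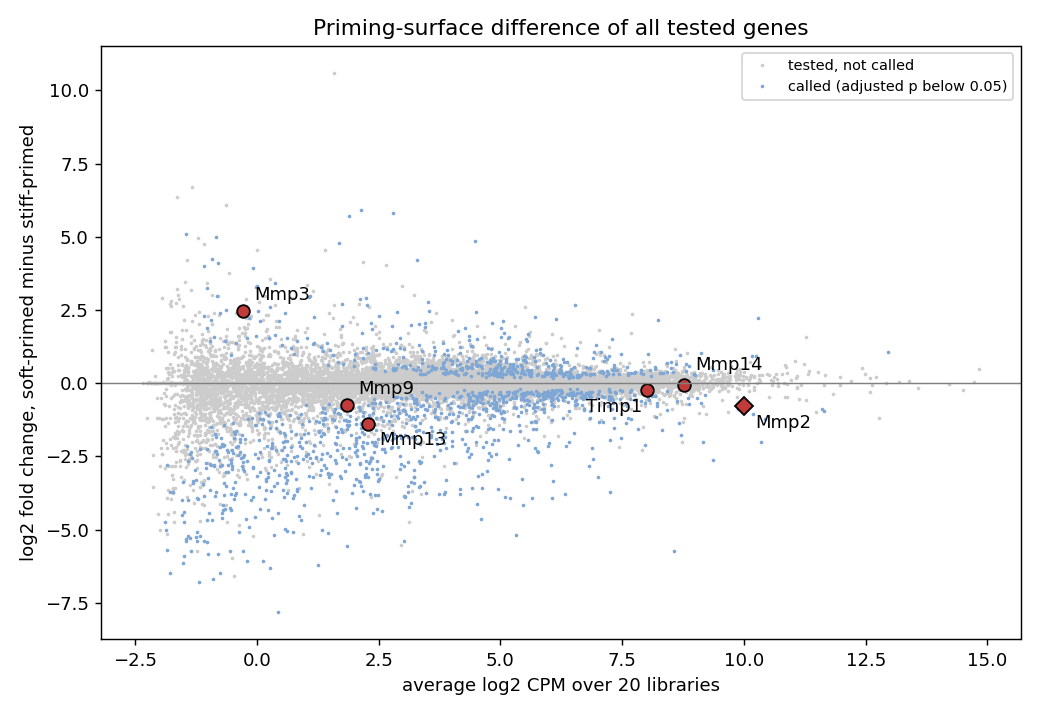
Soft-primed minus stiff-primed log2 fold change of the 14034 tested genes in the five-week libraries (y axis) against average log2 CPM over the 20 libraries (x axis), with called genes in blue and the 6 genes in red. Mmp2, the diamond, was called at -0.77, and Mmp3 lies at 2.46 in the low-count range where the scatter of all genes is wide.

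Relative to Timp1, Mmp2 was at 2.81 ± 0.0536 times the Timp1 CPM in 5w2 and 3.03 ± 0.215 times in 3w2→2w100, against 4.36 ± 0.754 in 5w100 and 4.17 ± 0.968 in 3w100→2w2 (SD, n = 2 each). The 4 ratios after soft priming (2.77 to 3.18) did not overlap the 4 after stiff priming (3.49 to 4.90). Same-numbered libraries of a priming are not independent, and the share of all genes with such a gap in a ratio was not computed. At 3 weeks the ratios overlapped, at 3.87 to 4.67 in 3w2 and 4.50 to 5.65 in 3w100. They also overlapped at 1 week, at 2.94 to 5.45 in 1w2 and 2.95 to 6.23 in 1w100. The Mmp14 to Timp1 ratio went from 1.57 ± 0.217 (3w2→2w100) and 1.62 ± 0.439 (5w2) to 1.38 ± 0.0501 (5w100) and 1.41 ± 0.0514 (3w100→2w2), with overlap (SD, n = 2 each). Because lengths differ between genes, the change of such a ratio between groups can be read, and the ratio itself is no measure of enzyme over inhibitor.

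Over all 20 libraries, the log2 CPM of Mmp2 followed that of Mmp13 (Pearson r = 0.71) and Mmp14 (r = 0.60) and ran against that of Mmp3 (r = -0.74). The r of Mmp13 with Mmp3, its chromosomal neighbour, was -0.51, and that of Mmp9 with Timp1 0.58. These are descriptions over n = 20 libraries that share groups and replicate numbers. Among 11073 other genes averaging 50 counts or more, the gene whose pattern was most like that of Mmp2 was ENSRNOG00000016873 (r = 0.95), and for Mmp13 it was ENSRNOG00000004477 (r = 0.92). For Mmp3 it was ENSRNOG00000021151 (r = 0.92, among 11074 genes) and for Timp1 ENSRNOG00000057945 (r = 0.83). The highest r was 0.87 for Mmp14 and 0.81 for Mmp9.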

How the data were processed

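Per the labels and the study's methods, the authors trimmed reads with Trim Galore, checked them with FastQC, aligned them to rn7 with HISAT2 and deposited raw counts per gene from featureCounts. For tool versions, strand and multi-mapped reads the settings were not given in the sources used here. No row lacked a gene name. The counts were tested with edgeR 4.0.16 in R 4.3.3: TMM factors, filterByExpr (minimum count 10), a quasi-likelihood fit of all 20 libraries in 8 groups, and Benjamini-Hochberg adjustment over 14034 genes, with a call at an adjusted p below 0.05. The 95% intervals are the estimate ± 2.13 SE, from the t distribution of the test. DESeq2 1.42.0 was an alternative. The study's methods call the replicates biological, with MSCs of different rats, but the labels tie no number to a rat. Same-numbered libraries deviated together at 1 week (r from 0.63 to 0.78 over 3 numbers).

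The 6 genes, the comparisons and the motifs were chosen with earlier results of these data known. Names were limited to the 6 genes and, for each, the genes of highest correlation with it. Of 47357 RefSeq entries 0 carried an Ensembl identifier, so lists of other proteases, inhibitors and cell type markers drawn up by symbol could not be matched and were not analysed here. The symbols of the 6 genes come from the selection rule, and all 6 exist in RefSeq.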

Additional observations from a re-analysis of the deposited data

Results flagged for a closer look

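In 2 sets of 4 five-week libraries, 1 value of Timp1 stood far from the other 3 by Dixon's test. Among the stiff-primed libraries, 5w100 replicate 1 was highest at 289.8 CPM, against 269 to 272 CPM in the others. Among the libraries on soft silicone at harvest, 5w2 replicate 1 was lowest at 212.8 CPM, against 262 to 272 CPM. The 2 came from 24 sets of 4 tested, and chance marks about 1 in 20. Both belong to the constant cultures of replicate 1. Leaving out 5w2 replicate 1 brought the Timp1 priming difference to -0.15 and leaving out 5w100 replicate 1 to -0.20, with the same sign and not called in either case.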

How the results depend on the processing

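The alternatives were scaling by RLE, keeping all genes, keeping genes averaging 10 counts or more, DESeq2, only the groups compared, a replicate block and leaving out each library. Also included were DESeq2 on only the groups compared and, for some comparisons, pairs summed or a block for each pair. Many of the fold changes given above were recomputed under these settings, but some were left out, such as that of Mmp3 at 3 weeks. Of the recomputed values, 431 kept their direction and their side of the threshold, 13 passed it, 7 no longer did and 13 changed sign. For the priming surface, in place of the 1 gene called (Mmp2), 2 genes (Mmp2 and Mmp3) were called with the filter at a mean of 10 counts, with DESeq2 and with the replicate block (Mmp3 adjusted p 0.0498, 0.0133 and 0.0228). None (0) was called with only the groups compared or with the pairs of libraries summed, without or with a replicate block (Mmp2 adjusted p 0.0723, 0.204 and 0.0924, Mmp3 0.259, 0.246 and 0.139), and 0 to 2 when 1 library was left out. At 5 weeks the replicate block, DESeq2 and DESeq2 on the groups compared each called 1 of the 6, Mmp2 (adjusted p 0.0466, 0.0368 and 0.00748), where the test above called 0. DESeq2 on only the groups compared also called 1 at 3 weeks (Mmp13) and 1 for 3w2→2w100 against 5w100 (Mmp2, adjusted p 0.0395). From 1 to 3 weeks on soft it called 2 (Mmp13 and Timp1), where DESeq2 on all libraries called 1. For the priming surface it called 1 (Mmp2, adjusted p 1.00e-04), where edgeR on those groups called 0. A block for each pair of five-week libraries of the same first surface and number was run for the surface at harvest and for each switch against the same first surface. It called 0 genes in each. This block, pairs summed and DESeq2 on the groups compared were added after the data were seen. The cause of these shifts was not tested.

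Same-numbered libraries of 3w2 and 3w100 had correlated deviations, with r from 0.08 to 0.46. At 5 weeks r was 0.76 for 5w2 with 3w2→2w100 and 0.80 for 5w100 with 3w100→2w2, which share a first surface. Between groups of different first surface it was 0.17 to 0.25, and 0.18 for 5w2 with 5w100. At 5 weeks there are only 2 numbers, and the labels tie none to an animal. Over all genes, the priming count was 1369 and became 2297 with the replicate block, 194 with only the groups compared and 11 with pairs summed. The count for 5w2 against 5w100 was 37 and became 498 with the block, 588 with DESeq2 and 0 with only the groups compared.

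Sign changes came from leaving out 1 library and touched differences that were not called. The ranges were -0.34 to 0.17 for Mmp2 and -0.75 to 0.15 for Mmp13 between surfaces at 1 week, -3.59 to 0.69 for Mmp13 at 5 weeks, -0.032 to 0.23 for Mmp2 in 3w2→2w100 against 5w2 and -0.36 to 0.10 in 3w100→2w2 against 5w100. They were -0.12 to 0.0139 for the priming difference of Mmp14 and, for the surface at harvest, -3.53 to 1.92 for Mmp3 and -0.23 to 0.00342 for Mmp2. For Mmp3 the lower end was fitted with 3w100→2w2 at 0 counts and the upper end with 5w100 at 0 counts, so neither is an estimate of size. Alternatives for lists of pathway genes were not run. Mmp3 held 0 to 53 counts in a library, which limits its precision, while Mmp9 and Mmp13 had within-group SDs of 0.93 and 1.07 on the log2 scale.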
